A study of Mus musculus with 14 samples.

Results

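The adult globin genes and Alas2, transcripts best known from developing red blood cells, were measured in mouse brain tissue after an intracerebral haemorrhage (ICH). The members were chosen by gene name and comprised 5 of the 31507 genes in the deposited expression table, namely the alpha-globin genes Hba-a1 and Hba-a2, the beta-globin genes Hbb-bs and Hbb-bt, and Alas2. The study used m6A sequencing, in which an antibody pulls down RNA fragments that carry N6-methyladenosine (the IP library) and the unselected poly(A) RNA is sequenced beside them (the input library). The acupuncture group (2 samples) consisted of mice with a haemorrhage that were needled at the GV20 point on the head over 7 days, the ICH group (2 samples) of mice labelled as given autologous blood, and the sham group (3 samples) of sham-operated mice. Each sample had 1 IP and 1 input library. The labels gave brain tissue without a region, and gave no strain, sex or age and no statement on whether blood was flushed from the vessels before dissection.

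Haemoglobin carries oxygen as a tetramer of paired alpha-like and beta-like chains, each holding a haem group. Red cell precursors make both chains in balance, and Alas2 is the erythroid form of the enzyme that starts haem synthesis. Mature mammalian red cells have no nucleus, but the youngest circulating ones, the reticulocytes, still hold globin mRNA, so that a tissue dissected with blood in its vessels carries these transcripts. Alpha- and beta-globin transcripts have also been described in rodent neurons and glia. The mouse alpha pair on chromosome 11 and the beta pair on chromosome 7 are each near-identical copies, so that reads can be split between copies in ways that depend on the counting, and values of single copies are uncertain.

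The upstream sequences are shown for description, and their part in the shared movement of the globin genes across the libraries was not tested. These are the 250 bases before the RefSeq start of each gene on GRCm38.p6, 5′ to 3′ on the gene's own strand. Capitals mark exact matches on either strand (as the reverse complement on the opposite one) to the word GATAA found in sites of GATA factors, to the word CACCC found in sites of KLF factors, to the word CCAAT bound by the factor NF-Y, or to the word ATATAA of the TATA box. Hba-a2 is not printed, because 247 of 247 bases were identical to Hba-a1 once its window was shifted by 3 bases.
Hba-a1 (chr11:32283422-32283671, plus strand): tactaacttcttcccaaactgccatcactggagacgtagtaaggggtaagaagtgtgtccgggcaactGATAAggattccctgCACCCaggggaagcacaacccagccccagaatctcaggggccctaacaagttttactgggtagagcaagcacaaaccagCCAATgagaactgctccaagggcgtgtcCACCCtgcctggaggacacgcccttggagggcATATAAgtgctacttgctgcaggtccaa
Hbb-bs (chr7:103827929-103828178, minus strand): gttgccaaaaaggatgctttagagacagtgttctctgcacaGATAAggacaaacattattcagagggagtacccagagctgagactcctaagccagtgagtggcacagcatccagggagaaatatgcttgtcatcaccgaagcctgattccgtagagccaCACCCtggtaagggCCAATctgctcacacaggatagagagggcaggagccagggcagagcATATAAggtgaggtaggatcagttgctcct
Hbb-bt (chr7:103813924-103814173, minus strand): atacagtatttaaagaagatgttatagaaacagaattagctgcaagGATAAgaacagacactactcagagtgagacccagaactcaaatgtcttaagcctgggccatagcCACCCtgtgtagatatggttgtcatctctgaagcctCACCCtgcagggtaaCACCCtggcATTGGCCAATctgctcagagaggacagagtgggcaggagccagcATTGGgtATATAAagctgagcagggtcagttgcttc
Alas2 (chrX:150547167-150547416, plus strand): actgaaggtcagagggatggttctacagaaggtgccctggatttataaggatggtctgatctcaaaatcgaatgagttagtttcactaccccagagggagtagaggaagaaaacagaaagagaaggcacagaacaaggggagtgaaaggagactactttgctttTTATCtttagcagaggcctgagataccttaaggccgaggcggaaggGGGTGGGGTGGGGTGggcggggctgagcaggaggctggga

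All 4 globin genes held all 4 words within these windows, against 153 of 32851 promoter windows in the RefSeq table (0.466%). The words were chosen and not drawn at random. The windows of Hba-a1 and Hba-a2 are almost the same sequence, so nothing is read from this share. Taken word by word, GATAA was present in 22.6% of all windows, CACCC in 52.0%, CCAAT in 33.9% and ATATAA in 9.10%. Alas2 held GATAA once and CACCC at 3 adjacent places, all on the opposite strand, and had no match to the other words in its window. ATATAA lay between -31 and -23 from the start in the 4 globin genes. Hbb-bt held CACCC at 3 places and CCAAT at 3, where Hbb-bs held each once. No matches to different words overlapped. The starts in the deposited table differed from the RefSeq starts by 3 to 168 bases, and word matches are a description of the letters only.

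Gene levels were deposited as FPKM (fragments scaled to gene length and library size) for the 7 input libraries, whose summed FPKM ranged from 179810 to 198472. Read depth and its precision are unknown, because FPKM gives no counts. ICH replicate 2 stood apart from the other libraries over all genes and had 23495 genes above 0, against 24028 to 24746 in the others. The labels did not say that replicates came from separate animals, so that p-values measure only the spread between these samples. Differences were tested with limma on log2(FPKM + 1) over the 13666 genes averaging 1 FPKM or more, with an adjusted p (Benjamini-Hochberg) under 0.05 as the threshold, and fold changes on this scale understate changes of low genes. The 4 globin genes passed the filter and Alas2, with a mean of 0.639 FPKM, did not.

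Hbb-bs (ENSMUSG00000052305; GRCm38 chromosome 7, 103826534 to 103828096) encodes an adult beta chain and was the highest of the members by mean over the 7 libraries. It stood at 91.1 and 127 FPKM in acupuncture, at 27.1 and 72.7 FPKM in ICH, and at 65.2, 115 and 129 FPKM in sham. ICH replicate 1 was the lowest library, and ICH replicate 2 lay above the lowest sham library, so that these groups overlapped. By level, Hbb-bs ranked between 163 and 1383 of the 31507 genes in each library.

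Hba-a1 (ENSMUSG00000069919; chromosome 11, 32283511 to 32284465) encodes the adult alpha chain. Its levels were 59.5 and 80.0 FPKM in acupuncture, 23.6 and 46.8 FPKM in ICH, and 62.6, 86.6 and 107 FPKM in sham. Both ICH libraries were below all 5 others. Hba-a2 (ENSMUSG00000069917; chromosome 11, 32296489 to 32297298), the other alpha copy, had 57.0 and 77.5 FPKM in acupuncture, 21.8 and 47.4 FPKM in ICH, and 38.2, 90.9 and 97.4 FPKM in sham. Here sham replicate 1 lay between the ICH libraries.

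Hbb-bt (ENSMUSG00000073940; chromosome 7, 103812524 to 103813996) is the neighbouring beta copy and was the lowest of the 4 globin genes. It had 24.3 and 33.2 FPKM in acupuncture, 7.74 and 13.3 FPKM in ICH, and 20.9, 37.6 and 45.2 FPKM in sham. The ICH libraries were again below all others, and the acupuncture libraries lay within the range of sham. Alas2 (ENSMUSG00000025270; chromosome X, 150547375 to 150570638) was present at 0.500 and 0.653 FPKM in acupuncture, at 0.108 and 0.483 FPKM in ICH, and at 0.465, 1.18 and 1.08 FPKM in sham, with ICH and sham overlapping.

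**Figure D1:**
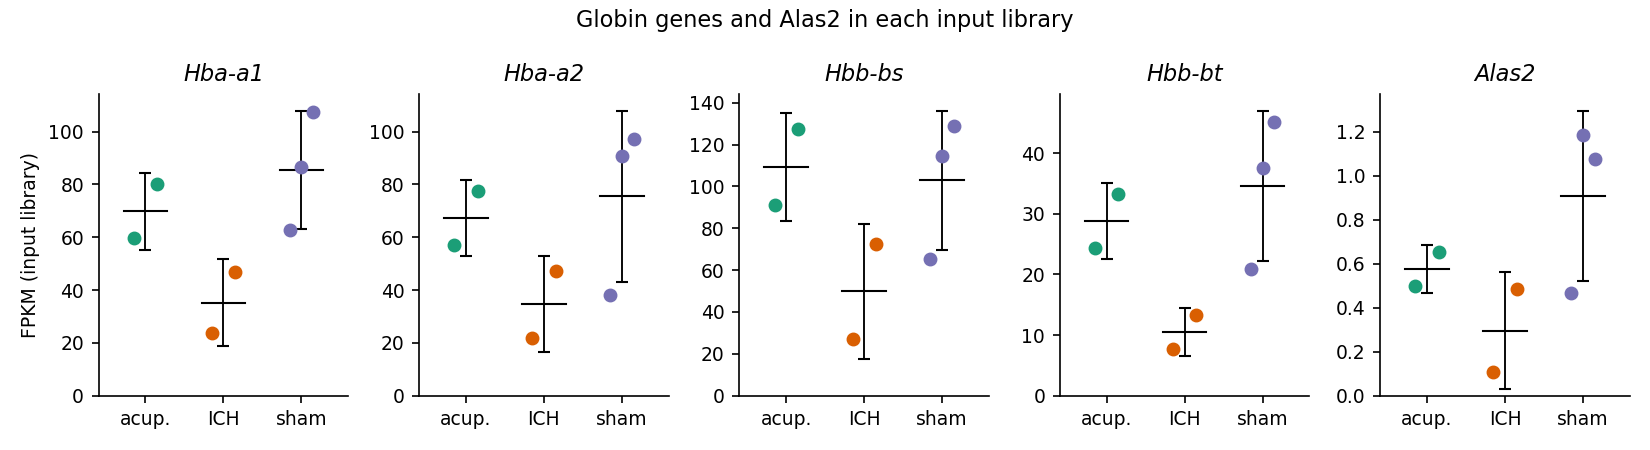
FPKM of each member in each input library (points), with the group mean (bar) and SD (whisker); acupuncture and ICH have 2 libraries each and sham has 3. ICH replicate 1 is the lowest point in all 5 panels, at 23.6 FPKM for Hba-a1 and 27.1 FPKM for Hbb-bs.

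The spread within groups was large. Between the ICH libraries the level differed by 1.98 times for Hba-a1, 2.17 times for Hba-a2, 2.68 times for Hbb-bs and 1.72 times for Hbb-bt. Between the acupuncture libraries these ratios were 1.34 to 1.40, and from the lowest to the highest sham library 1.71 to 2.55. Sham replicate 1 was the lowest sham library for every member. Members were high and low in much the same libraries, and Pearson's r between members on the log2 scale over the 7 libraries was 0.877 (Hbb-bs with Alas2) to 0.981 (Hba-a1 with Hbb-bt). The points share their library and group, so these values are a description.

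The first comparison asked how the transcripts stood after the haemorrhage. In ICH against sham the globin genes were at lower mean levels, and Hbb-bt fell. Hbb-bt averaged 10.5 ± 3.92 FPKM in ICH (SD, n = 2) and 34.6 ± 12.4 FPKM in sham (SD, n = 3), with a log2 fold change (SE) of -1.60 (0.35; limma adjusted p = 0.0488). Hba-a1 averaged 35.2 ± 16.4 FPKM in ICH (SD, n = 2) and 85.5 ± 22.4 FPKM in sham (SD, n = 3), and its log2 fold change of -1.30 (SE 0.33) missed the threshold (limma adjusted p = 0.0787). Hba-a2 (-1.09, 95% interval -2.21 to 0.03, limma adjusted p = 0.24) and Hbb-bs (-1.13, 95% interval -2.20 to -0.06, limma adjusted p = 0.213) overlapped between the groups. Without ICH replicate 1 these were -0.55 for Hba-a2 and -0.44 for Hbb-bs, and without ICH replicate 2 they were -1.63 and -1.83. Of the 4 tested members 1 was called, and of all tested genes 776 (5.68%). The members' median log2 fold change was -1.22, beside -0.0061 over all genes. The Hbb-bt call was lost without acupuncture replicate 1 or 2 (limma adjusted p = 0.0840 and 0.0836), without ICH replicate 1 or 2 (0.0576 and 0.0567), without sham replicate 2 or 3 (0.148 and 0.138), with no filter (0.130), with quantile normalization (0.0593) and with only the compared groups fitted (0.0837). Without ICH replicate 2, Hba-a1 passed in its place at -1.78 (limma adjusted p = 0.0293), and without ICH replicate 1 it stood at -0.82. In bulk tissue, fewer cells that carry a transcript and less of it per cell cannot be told apart.

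Sums over the near-identical copies depend less than single copies on how reads were divided between them. Some dependence remains, because each FPKM is scaled to the length of its own gene. Summed alpha-globin stood at 117 and 158 FPKM in acupuncture, at 45.4 and 94.2 FPKM in ICH, and at 101, 178 and 205 FPKM in sham. Summed beta-globin stood at 115 and 161 FPKM in acupuncture, at 34.9 and 86.0 FPKM in ICH, and at 86.1, 152 and 174 FPKM in sham. For both sums, each ICH library was below each other library, although ICH replicate 2 and sham replicate 1 had nearly the same beta-globin sum. Neither sum passed the test in ICH against sham. The log2 fold change was -1.22 for alpha-globin (95% interval -2.15 to -0.29, limma adjusted p = 0.144) and -1.25 for beta-globin (95% interval -2.28 to -0.22, limma adjusted p = 0.170). Without ICH replicate 1 the sums differed by -0.71 and -0.61, and without ICH replicate 2 by -1.74 and -1.89, for alpha- and beta-globin in that order. The 4 globin genes together made up 0.117% and 0.165% of all FPKM in acupuncture, 0.0430% and 0.1002% in ICH, and 0.103%, 0.181% and 0.208% in sham.

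The second comparison asked whether acupuncture went with a difference among mice with a haemorrhage. All 4 tested members had higher levels in both acupuncture libraries than in both ICH libraries, and none passed the test. The share of all tested genes that separated in this way was not counted. The members also moved together, so nothing is read from the count of 4. Hbb-bt averaged 28.8 ± 6.25 FPKM in acupuncture and 10.5 ± 3.92 FPKM in ICH (SD, n = 2 each), a log2 difference of 1.40 (95% interval 0.48 to 2.31, limma adjusted p = 0.189). Hbb-bs averaged 109 ± 25.7 FPKM in acupuncture and 49.9 ± 32.2 FPKM in ICH (SD, n = 2 each), a log2 difference of 1.26 (limma adjusted p = 0.236). For Hba-a1 and Hba-a2 the log2 fold changes were 1.03 and 1.02 (limma adjusted p = 0.218 and 0.289). Summed alpha-globin differed by 1.04 (limma adjusted p = 0.243) and summed beta-globin by 1.30 (limma adjusted p = 0.224). Without ICH replicate 1 the log2 fold changes were 0.48 to 1.04 for the 4 genes, 0.52 for summed alpha-globin and 0.66 for summed beta-globin. Without ICH replicate 2 they were 1.51 to 1.95 for the 4 genes, 1.56 for summed alpha-globin and 1.93 for summed beta-globin. Few genes of any kind were called in this comparison, 5 of 13666 (0.0366%), while 2754 had an unadjusted limma p under 0.05, among them 3 of the 4 members. The members' median was 1.14, beside 0.0466 over all genes. This comparison shares its ICH libraries with the preceding one.

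Against sham, the acupuncture libraries overlapped for every member. The log2 fold changes were -0.27 for Hba-a1 (95% interval -1.06 to 0.51), -0.07 for Hba-a2 (-1.19 to 1.05), 0.12 for Hbb-bs (-0.94 to 1.19) and -0.21 for Hbb-bt (-1.04 to 0.63). These intervals leave room for a change of 1 on the log2 scale in at least 1 direction for each of the 4 genes, so that a change of this size cannot be told from none. None of the 4 was called (limma adjusted p = 0.678 to 0.949), against 1598 of all genes (11.7%), and 3486 genes had an unadjusted p under 0.05, none of them a member. With ICH and acupuncture joined, the log2 fold changes against sham were -0.79 for Hba-a1, -0.58 for Hba-a2, -0.50 for Hbb-bs and -0.90 for Hbb-bt (limma adjusted p = 0.138, 0.437, 0.486 and 0.113). None was called there, against 1452 of all genes (10.6%). Without ICH replicate 2, Hba-a1 was called in that joined comparison (limma adjusted p = 0.0297), and without sham replicate 1, Hbb-bt was (0.0418). Alas2, testable only with no filter on low values, had log2 fold changes of -0.55 in ICH against sham, 0.30 in acupuncture against ICH and -0.26 in acupuncture against sham (limma adjusted p = 0.342, 0.594 and 0.650).

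**Figure D2:**
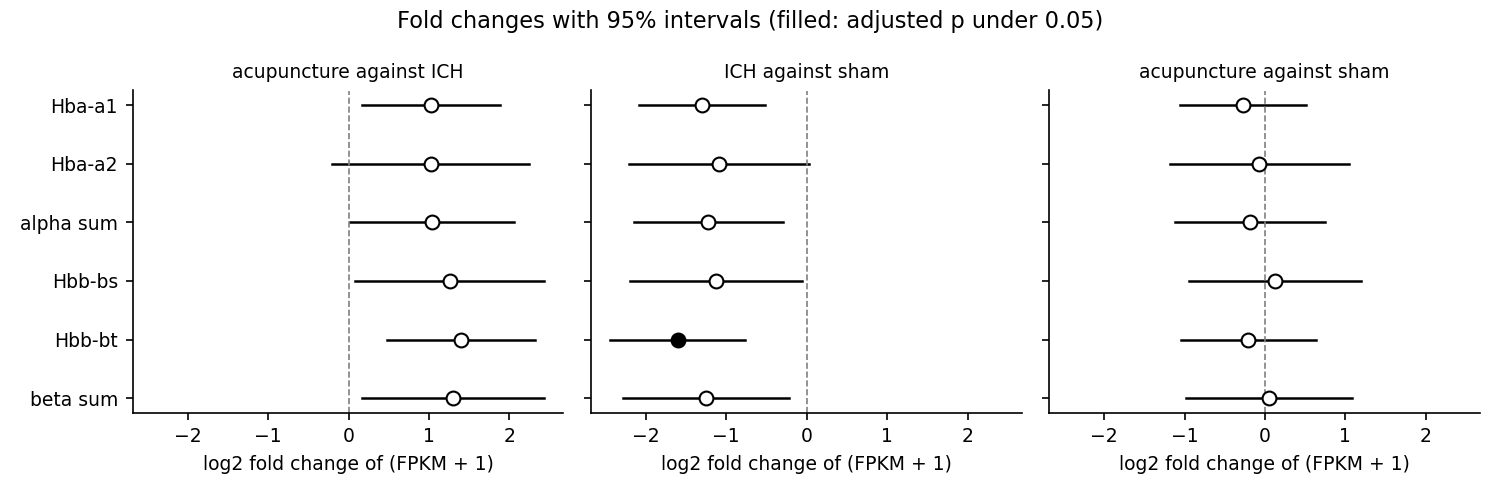
Log2 fold change of each globin gene and of the summed pairs (points) with 95% intervals (lines) in 3 comparisons; a filled point passed the adjusted threshold. Hbb-bt in ICH against sham, at -1.60, is the only filled point, and the intervals of acupuncture against sham all span 0.

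Within a library, the proportions of the transcripts to each other do not depend on how much of them there was. The ratio of beta- to alpha-globin was 0.990 and 1.02 in acupuncture, 0.768 and 0.912 in ICH, and 0.854, 0.858 and 0.850 in sham. Both acupuncture libraries were above all 5 others, and the 3 sham libraries lay close together. Acupuncture exceeded sham by 0.151 (exact permutation test, two-sided, p = 0.2, the smallest possible with 2 against 3 libraries), and exceeded ICH by 0.165 (exact p = 0.333, the smallest possible with 2 against 2).

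Hbb-bt made up 21.1% and 20.7% of beta-globin in acupuncture, 22.2% and 15.4% in ICH, and 24.3%, 24.7% and 26.0% in sham. All 4 libraries with a haemorrhage were below all 3 sham libraries, with a mean difference of -5.15 percentage points (exact permutation test, two-sided, p = 0.0571, the smallest that 4 against 3 libraries allow, 0.4 after Benjamini-Hochberg adjustment over 16 such tests of proportions). The share rests on the division of reads between near-identical copies. For the alpha copies, the ratio of Hba-a2 to Hba-a1 was 0.907 to 1.05 in 6 libraries and 0.611 in sham replicate 1. Alas2 stood at 2.16 and 2.05 FPKM per 1000 FPKM of globin in acupuncture, 1.35 and 2.68 in ICH, and 2.49, 3.59 and 2.84 in sham, so that acupuncture lay below sham and ICH overlapped it (both haemorrhage groups against sham, exact permutation p = 0.114).

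**Figure D3:**
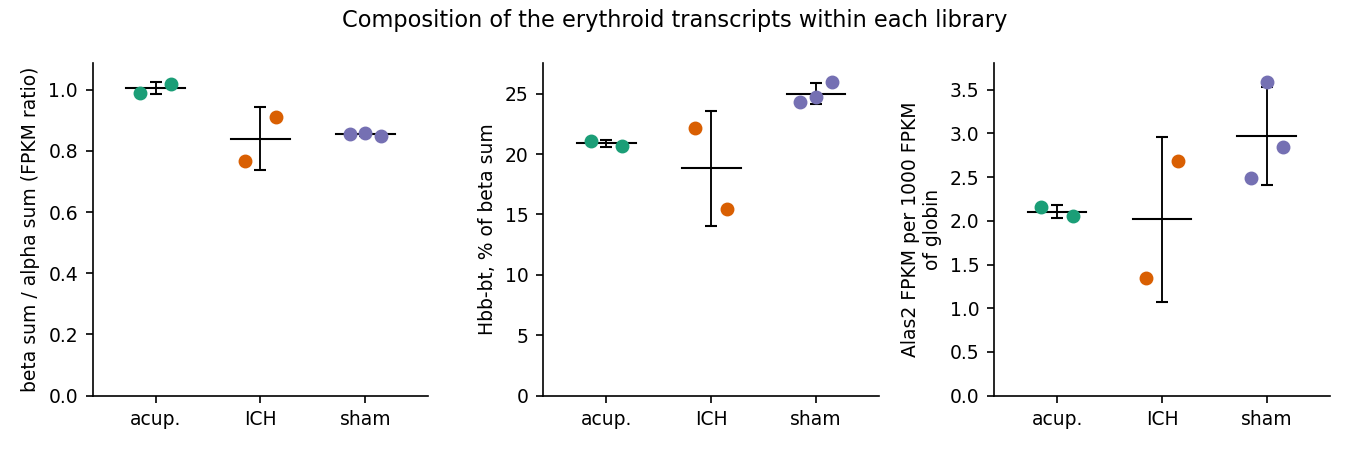
Ratio of summed beta- to summed alpha-globin, percent of beta-globin held by Hbb-bt, and Alas2 FPKM per 1000 FPKM of globin in each input library (points), with group mean (bar) and SD (whisker). The acupuncture points of the first panel (0.990 and 1.02) lie above all others, and the sham points of the second panel (24.3% to 26.0%) lie above all others.

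Other genes of the red cell lineage were described from lists. The markers of nucleated red cell precursors were near 0 beside globin. Slc4a1, the anion exchanger of the red cell membrane, did not exceed 0.0929 FPKM in any library, and Klf1, the transcription factor that activates adult beta-globin, did not exceed 0.244 FPKM. Epb42, a membrane skeleton protein, was listed at 0 in 6 of 7 libraries. Of the 18 genes for the erythrocyte membrane and skeleton, 9 were under 0.5 FPKM in every library, and of 9 erythroid transcription factors in the table, 4 were. These levels were too near 0 to tell whether the markers moved with the globin genes across libraries. Alas2, also low, did move with the globin genes (r of 0.877 with Hbb-bs to 0.946 with Hba-a2). The precursor markers thus do not settle the name erythroid, and the transcripts are called here by their genes. Which cells the globin transcripts came from was not tested. Gata1 and Ahsp were not found by name among the 31507 genes, so that they could not be analysed here.

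The haem synthesis list had 13 tested genes, none of them called in ICH against sham or in acupuncture against ICH. Its highest members were Tmem14c, a mitochondrial porphyrinogen transporter of red cell precursors, Urod, uroporphyrinogen decarboxylase, and Slc25a37, the mitochondrial iron importer. Tmem14c had 27.3 and 22.7 FPKM in acupuncture, 22.4 and 6.22 FPKM in ICH, and 21.5, 20.7 and 21.4 FPKM in sham, with the low value in the ICH library that stood apart. Without ICH replicate 1, which leaves the library that stood apart as the sole ICH library, 6 of the 13 haem synthesis genes were called in acupuncture against ICH, where 37.4% of all tested genes were, and 4 in ICH against sham, where 38.1% of all tested genes were. List counts from the fit without ICH replicate 1, here and in the lists that follow, stand against these shares and are not results about the lists. In acupuncture against sham 23.5% of all tested genes were called without either ICH library, in place of 11.7%.

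Of 8 tested genes for the membrane and its skeleton, Ank1, which ties the spectrin skeleton to the membrane, fell in acupuncture against sham (2.71 and 3.15 FPKM in acupuncture, 4.30, 3.89 and 4.26 FPKM in sham, log2 fold change -0.39, limma adjusted p = 0.0436) and no other was called. That count of 1 was 2 without either ICH library, and 0 without acupuncture replicate 2 or any 1 sham library. The highest of the list were Dmtn and Add2, which bind and cap actin of the membrane skeleton and are also expressed in brain, and Tmod1, which caps actin filaments. Their log2 fold changes in ICH against sham were -0.10, -0.13 and -0.16 (limma adjusted p = 0.548, 0.566 and 0.627). None of the 4 tested transcription factors was called in any comparison. Ldb1, Lmo2 and Zfpm1, partners of GATA1 in erythroid gene control, had log2 fold changes of -0.16, -0.25 and 0.08 in ICH against sham (limma adjusted p = 0.443, 0.321 and 0.781). Without ICH replicate 1, 2 of the 4 and 3 of the 8 membrane genes were called in ICH against sham, where 38.1% of all tested genes were. In the same fit 2 of the 4 and 2 of the 8 were called in acupuncture against ICH, where 37.4% of all tested genes were. Without acupuncture replicate 1, 1 membrane gene was called in acupuncture against ICH.

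Of 15 tested genes of erythroid maturation and red cell enzymes, 3 were called in ICH against sham. Ube2l6, a conjugating enzyme for the ubiquitin-like protein ISG15 that is also induced by interferon, rose by 1.35 on the log2 scale (4.20 and 7.96 FPKM in ICH, 1.55, 1.80 and 1.68 FPKM in sham, limma adjusted p = 0.0186). Gpx1, glutathione peroxidase, rose by 0.66 (limma adjusted p = 0.0351). Tfrc, the transferrin receptor that brings iron into cells, fell by 0.75 on the log2 scale, with 8.92 and 9.80 FPKM in ICH, against 16.3, 16.4 and 16.6 FPKM in sham (limma adjusted p = 0.00326). In acupuncture against sham Ube2l6 and Gpx1 rose (log2 fold changes 1.23 and 1.01, limma adjusted p = 0.0164 and 0.0038), while Tfrc, the carbonic anhydrase Car2 and the mitochondrial protein Fam210b fell (-0.79, -0.50 and -0.53, limma adjusted p = 0.0016, 0.0389 and 0.0195). None was called in acupuncture against ICH. That count of 0 was 6 of 15 without ICH replicate 1, where 37.4% of all tested genes were called. In ICH against sham the count of 3 was 9 without ICH replicate 1, where 38.1% of all tested genes were called, and 1 without any 1 sham library, where 2.83% to 3.15% were. In acupuncture against sham the count of 5 was 8 without either ICH library, 3 without acupuncture replicate 1, and 2 without acupuncture replicate 2, sham replicate 1 or sham replicate 3.

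The other globins tested were Cygb, cytoglobin, and Ngb, neuroglobin, which is made by neurons. Ngb had 1.04 and 0.312 FPKM in acupuncture, 1.98 and 1.03 FPKM in ICH, and 5.06, 1.48 and 5.26 FPKM in sham, and Cygb had 18.4 to 19.2 FPKM in the libraries with a haemorrhage and 18.9 to 23.9 FPKM in sham. Neither was called in any comparison with all 7 libraries, and 1 of them was called in acupuncture against sham, and in both haemorrhage groups against sham, without sham replicate 2. Unlike the members' means, the mean of Ngb was lower in acupuncture than in ICH, and that difference between genes was not tested. The theta-globin Hbq1a, which lies beside the alpha pair, averaged 0.482 FPKM over the 7 libraries.

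Genes that clear haemoglobin and haem, and store or export the iron, are given beside the members. Of 11 tested genes 5 rose in ICH against sham, where 0 fell, and 7 rose in acupuncture against sham, where 0 fell. Over all 13666 tested genes 677 rose and 99 fell in ICH against sham, and 1158 rose and 440 fell in acupuncture against sham. Hmox1, the enzyme that degrades haem, had 240.0 and 249 FPKM in acupuncture, 144 and 141 FPKM in ICH, and 2.10, 2.67 and 2.08 FPKM in sham, a log2 difference of 5.45 in ICH against sham (SE 0.11, limma adjusted p = 6.01e-06). The ferritin subunits Fth1 and Ftl1, which store iron, rose by 1.04 and 1.54 on the log2 scale in ICH against sham (limma adjusted p = 0.0122 and 0.0281). Hp, haptoglobin, which binds free haemoglobin, rose in acupuncture against sham (14.8 and 5.60 FPKM in acupuncture, 1.15, 1.10 and 1.0006 FPKM in sham, log2 fold change 2.30, limma adjusted p = 0.00629). None of the 11 was called in acupuncture against ICH. The ICH count of 5 was 2 without any 1 sham library, and the count of 0 in acupuncture against ICH was 5 without ICH replicate 1, where 37.4% of all tested genes were called, and 1 without acupuncture replicate 2. The summed level of this list was above sham in both ICH libraries, while that of the members was below.

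Other cells of the blood and the vessel wall were followed by their markers. The 12 neutrophil markers in the table summed to 88.9 and 60.0 FPKM in acupuncture, 22.9 and 25.2 FPKM in ICH, and 11.1, 9.98 and 12.9 FPKM in sham. Of these, 8 averaged under 1 FPKM and were not tested. Among the untested markers, Camp and Ltf were lower in both ICH libraries than in every sham library, Cxcr2 and Mmp8 were higher, and the others overlapped. All 4 tested neutrophil markers were called higher in acupuncture against sham, where 11.7% of all tested genes were called in either direction. In ICH against sham, where 5.68% were, only Csf3r was called higher. S100a8, S100a9 and Mmp9 were not called there (limma adjusted p = 0.096, 0.199 and 0.0557). The 12 platelet markers summed to 12.9 and 13.1 FPKM in acupuncture, 7.72 and 10.1 FPKM in ICH, and 2.92, 6.06 and 4.83 FPKM in sham, and Pf4, platelet factor 4, rose by 2.03 on the log2 scale in ICH and by 2.42 in acupuncture, each against sham (limma adjusted p = 0.00074 and 0.000184). The other 11 platelet markers summed to 4.29 and 5.87 FPKM in acupuncture, 2.93 and 3.16 FPKM in ICH, and 2.29, 5.36 and 4.17 FPKM in sham, so that ICH and sham overlapped without Pf4. Gp1bb, the other platelet marker tested, had a log2 fold change of -0.40 in ICH against sham (limma adjusted p = 0.511). The 8 markers of circulating monocytes summed to 29.2 and 25.8 FPKM in acupuncture, 17.8 and 22.7 FPKM in ICH, and 4.06, 4.40 and 5.04 FPKM in sham. Fn1 alone held 10.6 and 17.1 FPKM of the ICH sums. It was called in ICH against sham, and Chil3, the other one tested, was not (limma adjusted p = 0.0654). The remaining 6 averaged under 1 FPKM and were not tested. All of these but Cd177 were higher in both ICH libraries than in every sham library. The 6 endothelial markers summed to 68.4 and 65.1 FPKM in acupuncture, 49.0 and 39.5 FPKM in ICH, and 26.9, 34.9 and 33.5 FPKM in sham, with Pecam1 and Cdh5 called in ICH against sham (a count of 2 that was 0 without any 1 library other than ICH replicate 1). The 14 lymphocyte markers summed to 28.8 and 23.6 FPKM in acupuncture, 27.1 and 41.9 FPKM in ICH, and 22.6, 31.3 and 19.5 FPKM in sham. The part of these cells in the globin levels was not tested. For the neutrophil, monocyte and endothelial lists both ICH sums lay above every sham sum, also when the gene of each list that differed most was left out, and for platelets they did so through Pf4 alone. Both ICH sums over the 5 members lay below every sham sum, narrowly so for ICH replicate 2 (181 FPKM) beside sham replicate 1 (187 FPKM). The same order held for the lists of the erythrocyte membrane and skeleton, of erythroid maturation and enzymes, and of oligodendrocyte markers. The oligodendrocyte markers summed to 650 and 618 FPKM in ICH, and to 998, 818 and 1048 FPKM in sham. Lower sums in ICH were thus not particular to the members.

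**Figure D4:**
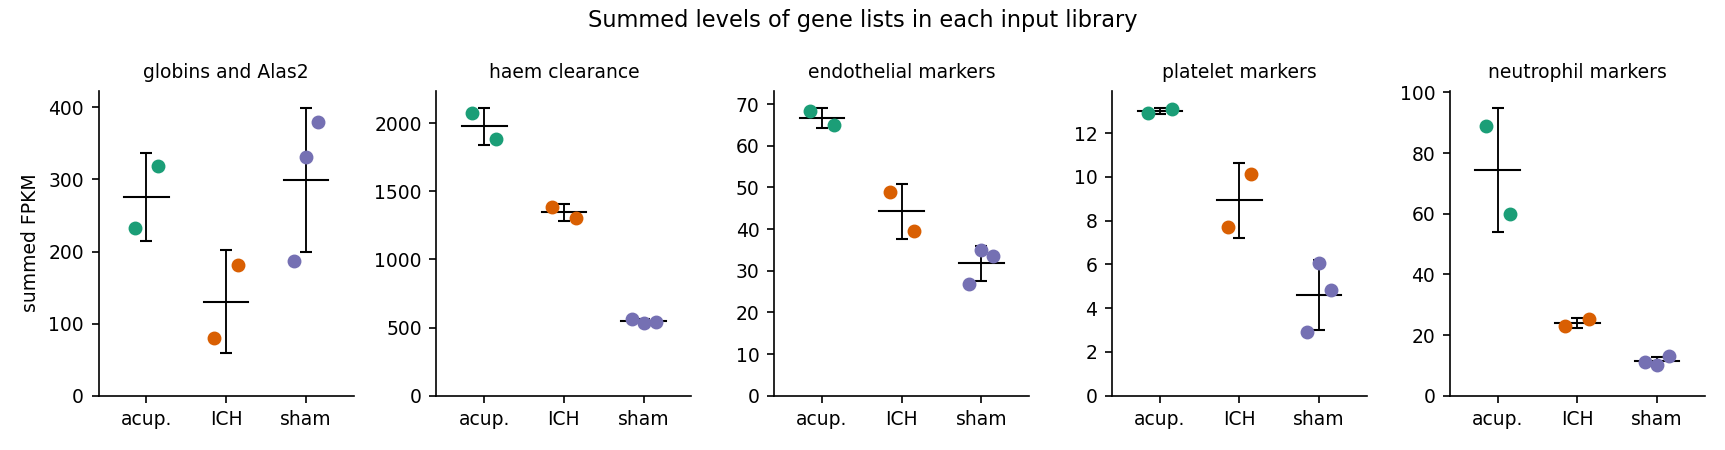
Summed FPKM of the 5 members and of 4 gene lists in each input library (points), with group mean (bar) and SD (whisker). The members are lowest in ICH (80.4 and 181 FPKM), while the haem clearance genes are lowest in sham (537 to 561 FPKM), as are the endothelial and neutrophil markers, and the platelet markers through Pf4.

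Genes whose levels ran most like the summed globins were found among 1201 non-members with an SD of at least 0.5 on the log2 scale, by Pearson's r over the 7 libraries. None exceeded 0.9 in either direction. Among the 10 pairs of members 9 did, but the 2 counts are not alike. The members were compared pair by pair, and they include near-identical copies. The non-members also had to average 1 FPKM or more, which Alas2 does not. Among the closest were Usf2-ps1 (r = 0.857), Zc3h11a (0.854), 1700016P03Rik (0.834), Arc (0.828), Gm6361 (0.814), Gp1bb (0.803) and Fos (0.801), and the most opposed were Gm10095 (-0.855), Spink8 (-0.810), Slc16a7 (-0.768) and Gm49527 (-0.711). Arc and Fos are immediate early genes of active neurons, and Gp1bb encodes a platelet glycoprotein chain. Arc had 18.9 and 45.0 FPKM in acupuncture, 10.1 and 35.2 FPKM in ICH, and 40.6, 87.7 and 51.1 FPKM in sham. The points share library and group, and the genes were picked for likeness.

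The peak lists gave, per group and not per library, the authors' log2 of IP over input for stretches enriched in m6A. A peak with a value of 1 has 2 times as much signal in IP as in input. The acupuncture list held 1 peak on a member among 50105 peaks, the ICH list held 6 among 54754, and the sham list held 4 among 48251. These peaks lay on 1 member in the acupuncture list, 4 in the ICH list and 3 in the sham list. By comparison 94.0%, 94.3% and 93.6% of the genes tested for expression, which leave out Alas2, had at least 1 peak in the acupuncture, ICH and sham lists. Hbb-bs, the highest member, had no peak in any of the 3 lists. There is 1 value per group and no replicate, so that the lists are described without a test, and all 11 peaks had the authors' adjusted p under 0.05. It is not stated whether samples behind 2 expression columns that match no label entered the lists.

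Hbb-bt had a peak in its 3′ untranslated region in all 3 lists. The acupuncture peak (chromosome 7, 103812523 to 103812773, minus strand) had a log2 value of 1.50, the ICH peak (103812523 to 103813968, reaching from the 3′ to the 5′ end) 2.24, and the sham peak (103812523 to 103812773) 1.37. Within their own lists these stood at the 70.6th, 86.3rd and 68.2nd percentile. The sham list had a second Hbb-bt peak in the 5′ untranslated region (103813868 to 103813968) at 0.79. That peak spans the RefSeq start of Hbb-bt at 103813923, the first base after the upstream sequence printed above. The widest Hbb-bt peak was in the group with the lowest Hbb-bt input level.

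On the alpha genes, the ICH list held an exonic peak (chromosome 11, 32283819 to 32284019) at 0.81 and a 3′ untranslated peak (32284119 to 32284465) at 1.02 on Hba-a1, and a 3′ untranslated peak on Hba-a2 (32297081 to 32297231) at 0.91. The sham list had the Hba-a2 peak alone (32297081 to 32297298), also at 0.91. Alas2 had exonic ICH peaks on chromosome X at 150552976 to 150553977 (1.28) and 150563901 to 150566471 (1.02), and a sham peak at 150563851 to 150566446 (0.89). Apart from the Hbb-bt 3′ peaks and the first Alas2 peak in ICH, all were below the median of their list, which was 1.12 in acupuncture, 1.24 in ICH and 1.07 in sham. Of the 6 ICH peaks 3 (50%) overlapped a sham peak, and of the 4 sham peaks all 4 (100%) overlapped an ICH peak. Over all peaks these shares were 71.6% of the ICH list and 80.9% of the sham list, at an overlap of at least 1 base on the same strand, and with so few member peaks nothing is read from the difference.

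**Figure D5:**
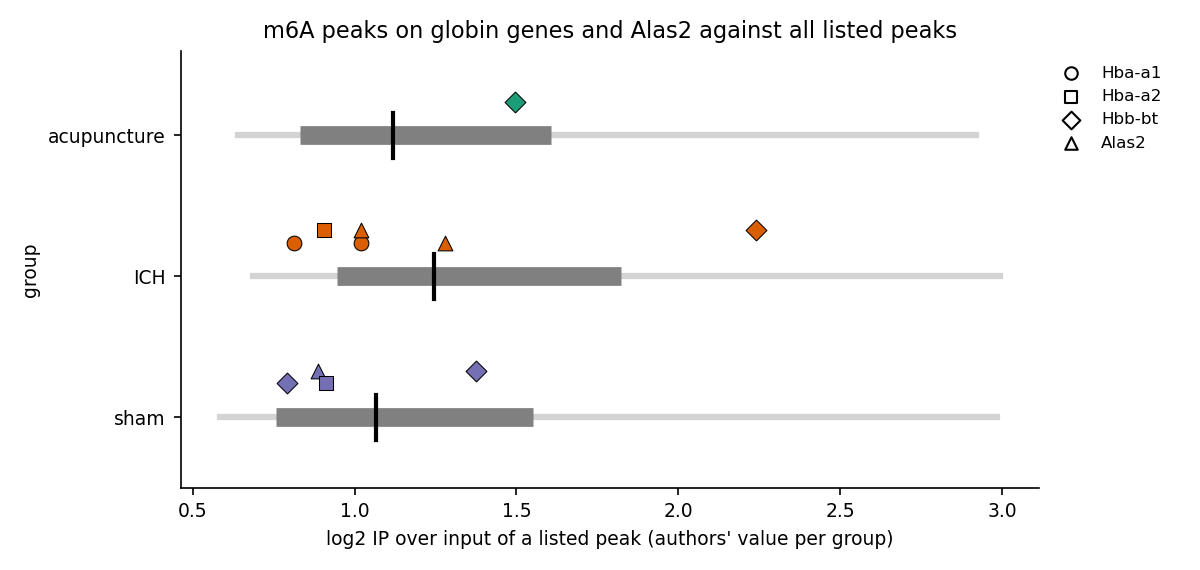
Log2 IP over input of each listed peak on a member (markers, by gene), placed over all peaks of the same list (thick bar, middle 50%; thin bar, 5th to 95th percentile; black line, median). The Hbb-bt peak of ICH, at 2.24, lies above the middle 50% of its list.

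The authors' deposited tables of differential peaks give values for regions defined anew in each pair of groups, and list only regions with a p under 0.05 or with none. In the authors' deposited table for acupuncture against ICH, the Hbb-bt region was at 1.27 in acupuncture and 2.19 in ICH, a difference of -0.92 (the authors' adjusted p = 2.07e-06). In the authors' deposited table for acupuncture against sham, the Hba-a2 region was at 0.44 in acupuncture and 0.88 in sham, a difference of -0.44 (the authors' adjusted p = 0.00327). In the authors' deposited table for ICH against sham, the Hbb-bt 3′ region was at 2.52 in ICH and 1.38 in sham (difference 1.14), the Hbb-bt 5′ region (chromosome 7, 103813502 to 103813968) at 1.63 in ICH and 0.23 in sham (difference 1.40), and an Hbb-bs 3′ region (103826533 to 103826733) at 0.84 in ICH and 0.47 in sham (difference 0.37). These directions were common to each table as a whole, since differences were positive in 18.7% of the authors' listed regions for acupuncture against ICH, 58.2% for acupuncture against sham and 78.7% for ICH against sham. The Hba-a2 difference in acupuncture against sham was the exception, being negative where most were positive. In ICH against sham the median difference over all listed regions was 0.556. The Hbb-bs region lay below it (33.9th percentile), and the Hbb-bt 3′ and 5′ regions lay above it (87.3rd and 92.9th percentile). Hbb-bt thus had the authors' higher IP over input in ICH, in the group where its input level was lowest, and the relation between these was not tested.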

How the data were processed

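Brain poly(A) RNA was sequenced as m6A IP and input libraries; per the labels, libraries were stranded by dUTP and read paired-end. Per the submitters' processing notes, fastp, HISAT2, HOMER, StringTie and edgeR were used, with roles and versions not given in the sources used here. Those notes name the human builds GRCh38 and hg38, while the files hold mouse identifiers whose positions lie on GRCm38. The authors deposited FPKM per gene for input libraries, per the file headers, and 2 further FPKM columns that match no sample were not used. Columns headed control and EA were taken as sham and acupuncture by elimination. The authors' log2 IP over input, and the p-value and adjusted p-value per peak, were deposited per group or pair of groups and are printed as such. Peak starts are as deposited and lie 1 base before gene starts where they coincide.

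Genes averaging 1 FPKM or more over the inputs were fitted with 1 mean per group in limma 3.58.1 (R 4.3.3) on log2(FPKM + 1) with a mean-variance trend, and the pipeline was tested on simulated data. FPKM gives no depth or counting error. Proportions were compared by exact permutation tests added after the data were seen. Marker sums without the gene that differed most between ICH and sham were also added then. Alternatives changed the pseudocount (0.1), filter, scaling, trend, samples fitted, replicate block and peak rules, and left out each library. Members and lists were chosen with earlier results of these data known. Named genes were all members, called genes of the erythroid lists, up to 3 of the highest genes of a list, the 8 genes most like and 4 least like the summed globins, and all member peaks. The precursor markers came from the marker list, and Hp and Cdh5 were chosen after their values were seen. Some genes that these rules name are not reported here. Python 3.11.15, numpy 2.4.6, pandas 2.3.3, scipy 1.17.1 and matplotlib 3.10.9 were used.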

Additional observations from a re-analysis of the deposited data

How the results depend on the processing

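Across 330 fold changes recomputed under the alternatives tried for the globin genes and their sums, 302 kept their direction and side of the threshold. That count does not measure how robust the results are. Nearly all of these were uncalled in the main fit and stayed so. Some alternatives also could not change an estimate, as ICH against sham without an acupuncture library. The count of members called in ICH against sham, 1, was 0 with no filter on low values, with quantile normalization and with libraries of the 2 groups only, and 0 to 1 when each library was left out. In both haemorrhage groups against sham the count of 0 was 0 to 1 when each library was left out. Hbb-bt passed in 5 of 14 alternatives in ICH against sham, where its log2 fold change was -1.96 to -1.25. No summed pair passed under any alternative run.

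All 16 changes of direction were in acupuncture against sham, where no member was called. With the replicate block the log2 fold change was 0.17 for Hba-a2, 0.0166 for Hbb-bt and 0.0174 for summed alpha-globin; summed beta-globin was -0.0535 with the same total per library and -0.0413 with quantile normalization. Leaving out 1 library at a time gave -0.49 to 0.17 for Hba-a2 (above 0 without acupuncture replicate 1, 0.15, sham replicate 2, 0.12, or sham replicate 3, 0.17), -0.17 to 0.36 for Hbb-bs (below 0 without acupuncture replicate 2, -0.12, or sham replicate 1) and -0.52 to 0.0166 for Hbb-bt (above 0 without acupuncture replicate 1, 0.01, or sham replicate 3, 0.0166). It gave -0.49 to 0.0299 for summed alpha-globin (above 0 without acupuncture replicate 1 or, at 0.0174, sham replicate 3) and -0.26 to 0.28 for summed beta-globin (below 0 without acupuncture replicate 2, -0.19, or sham replicate 1). The cause was not tested. Across genes, the deviations of same-numbered libraries had an r of -0.015 to 0.094. For every member, however, replicate 1 was below replicate 2 in each group. The SE of Hbb-bt in ICH against sham was 0.35 in the main fit and 0.16 with the replicate block. Whether the replicate numbers pair samples was not tested for the members. With the replicate block, Hbb-bt in ICH against sham stood at -1.38 on the log2 scale (limma adjusted p = 0.0173), the count of members called stayed at 1, and over all genes 351 were called in place of 776. In acupuncture against sham 750 genes were called with the block in place of 1598, and in both haemorrhage groups 729 in place of 1452; in acupuncture against ICH 3 in place of 5. Over all genes, 5212 were called in ICH against sham without ICH replicate 1, a fit in which the lone ICH library is assumed to vary like the other groups; with only the compared groups 3207 were called in acupuncture against sham and 2 in acupuncture against ICH. Requiring an overlap of at least 50% of the shorter peak left the shared peaks at 3 of 6 in ICH. FPKM without counts gives no depth, so that detection of the low Alas2 values is limited to an unknown degree.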
